A study of Mus musculus with 20 samples.

Results

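The peaks of H3K14ac (histone H3 acetylated at lysine 14) and of Kap1 in young mouse liver were compared on chromosomes 1 to 19. The members were all peaks of the 2 deposited lists on these chromosomes, 65969 of the 68265 that the lists hold. Of these, 47084 (of 48915) were Kap1 peaks and 18885 (of 19350) were H3K14ac peaks. Chromatin was immunoprecipitated and sequenced (ChIP-Seq) from snap-frozen liver tissue of wild-type male C57BL/6 mice aged 3 months. By the paper's methods, the reads of 2 livers for Kap1 and of 3 livers for H3K14ac were merged before peaks were called. The sample labels list the same numbers, but a figure legend of the paper gives 2 replicates for the merged H3K14ac reads. Each mark is thus 1 list and the livers' spread is unknown. No difference between the marks was therefore tested, and 95% Wilson intervals, where given, cover counting error only. The Kap1 libraries were sonicated for fewer cycles and sequenced on another instrument than the H3K14ac libraries, so the mark cannot be told apart from these steps, from the number of livers or from the threshold of peak calling.

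Kap1, encoded by Trim28, is a scaffold protein that KRAB zinc finger proteins, which read DNA sequence, bring to their target sites. It recruits Setdb1, which methylates lysine 9 of histone H3, as well as heterochromatin proteins and the Chd3 and Chd4 deacetylase complex, and is known for silencing retroelements and for binding zinc finger gene clusters. Acetylation of lysine 14 is written by enzymes such as Kat2a, Kat2b and Ep300, is removed by deacetylases such as Hdac3, and is best known from the promoters of active genes. The study looked for Setdb1 and Kap1 in regions that carry both H3K14ac and methylated lysine 9, whereas the comparison below is between the Kap1 and H3K14ac lists alone.

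The kinds of site on which the results turn are shown as 5 stretches of the reference genome (GRCm38), each from the plus strand, 5′ to 3′. In the first 3, the capitals mark a Kap1 peak of 150 bp, the commonest width, and 75 bases on each side are in lower case. Each is the first peak of its kind in deposited order with no second copy in the genome and no annotated untranslated bases. In the promoters, given as the 250 bases before the start site from RefSeq (GRCm38.p6), the capitals mark bases inside an H3K14ac peak.
Densest bin, chr4:147231335-147231634: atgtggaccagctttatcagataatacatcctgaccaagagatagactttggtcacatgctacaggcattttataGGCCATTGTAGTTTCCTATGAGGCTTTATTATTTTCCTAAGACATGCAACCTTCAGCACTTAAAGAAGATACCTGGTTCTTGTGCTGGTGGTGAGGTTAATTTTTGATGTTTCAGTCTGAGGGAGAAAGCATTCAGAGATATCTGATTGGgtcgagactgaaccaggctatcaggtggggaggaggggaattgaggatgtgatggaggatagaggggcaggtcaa
Olfr1214 start site, chr2:88987357-88987656: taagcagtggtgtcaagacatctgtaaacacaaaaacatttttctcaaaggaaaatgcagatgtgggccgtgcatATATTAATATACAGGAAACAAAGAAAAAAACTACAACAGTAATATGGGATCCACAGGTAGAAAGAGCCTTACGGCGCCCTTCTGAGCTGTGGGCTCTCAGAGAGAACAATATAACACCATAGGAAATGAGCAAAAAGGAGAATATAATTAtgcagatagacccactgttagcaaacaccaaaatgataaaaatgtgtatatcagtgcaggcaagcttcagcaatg
Between genes, chr8:33167836-33168135: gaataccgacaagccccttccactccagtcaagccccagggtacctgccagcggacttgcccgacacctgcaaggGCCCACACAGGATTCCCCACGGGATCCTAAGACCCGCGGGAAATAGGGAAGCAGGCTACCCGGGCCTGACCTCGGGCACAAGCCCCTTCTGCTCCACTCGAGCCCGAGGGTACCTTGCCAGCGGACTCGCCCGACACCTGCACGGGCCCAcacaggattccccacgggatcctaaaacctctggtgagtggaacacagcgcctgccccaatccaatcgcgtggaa
Trim28 promoter, chr7:13023902-13024151: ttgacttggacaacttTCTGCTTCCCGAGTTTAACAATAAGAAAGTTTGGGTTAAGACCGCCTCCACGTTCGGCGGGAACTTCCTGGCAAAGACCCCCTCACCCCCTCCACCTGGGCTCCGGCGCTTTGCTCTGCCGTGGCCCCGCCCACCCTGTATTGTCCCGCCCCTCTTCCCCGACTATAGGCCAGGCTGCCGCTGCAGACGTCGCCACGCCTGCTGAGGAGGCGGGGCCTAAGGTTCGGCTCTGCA
Hdac2 promoter, chr10:36974294-36974543: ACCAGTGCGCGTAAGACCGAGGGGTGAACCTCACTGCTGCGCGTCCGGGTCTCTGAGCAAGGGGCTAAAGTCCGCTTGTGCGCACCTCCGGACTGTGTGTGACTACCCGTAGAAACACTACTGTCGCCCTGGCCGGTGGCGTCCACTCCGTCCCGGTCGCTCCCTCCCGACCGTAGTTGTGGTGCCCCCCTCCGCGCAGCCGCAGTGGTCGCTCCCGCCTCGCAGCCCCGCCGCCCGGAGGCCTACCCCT
The peak of the densest bin lies wholly within H3K14ac, in an intron of the noncoding gene C230088H06Rik, where the genes Gm13147 and Gm26624 also lie. The peak at the olfactory receptor gene Olfr1214 lies 693 bp from its start site and 30979 bp from the nearest H3K14ac peak. The peak between genes lies 217908 bp from H3K14ac. Its 150 bp consist of soft-masked repeat to 100%. Of the bases before the start sites of Trim28 and Hdac2, which encodes a deacetylase, 234 and 250 lay in an H3K14ac peak and 0 in a Kap1 peak. Most of the promoters looked up had no such base. H3K14ac reached 2 of 8 promoters of the Kap1 complex and its partners, 3 of 9 of H3K14 acetylation and 1 of 10 hepatocyte promoters, and Kap1 reached 0. The share of all promoters with such a base is not given here, so these counts have no background value. Between the sites the CpG dinucleotide (CG) is unevenly spread, with 17 in the 250 bases of Trim28 and 27 in those of Hdac2, against 3 in the 300 bases at Olfr1214, 1 in the densest bin and 18 in the site between genes.

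A larger share of H3K14ac than of Kap1 peaks sat at promoters. By midpoint, 4854 H3K14ac peaks lay within 1 kb of an annotated start site, or 25.7% of the list (95% Wilson interval 25.1% to 26.3%), 5.75 times the share of known bases so placed, which is 4.47%. Of the Kap1 peaks 3021 lay there, or 6.42% (6.20% to 6.64%), 1.44 times that share. Most Kap1 peaks, 26404 or 56.1%, lay between genes, where 50.1% of the bases are, and 15593 or 33.1% lay in introns, which hold 42.3% of the bases. For H3K14ac the shares were 39.2% between genes and 31.2% in introns. Exons away from start sites held 4.39% of the Kap1 and 3.87% of the H3K14ac peaks, against 3.07% of the bases. The median distance to the start site of a coding gene was 54.2 kb for Kap1 and 20.7 kb for H3K14ac, and 51.6% of the Kap1 peaks lay more than 50 kb away.

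Around coding start sites the H3K14ac peaks lay on the transcribed side. In the first 1 kb downstream there were 3122 of them, or 16.5% of the list, and in the 1 kb upstream 1023, or 5.42%. The highest step of 250 bp was the one that begins at the start site, with 1398 peaks or 7.40% of the list. Kap1 showed a low rise at the same place, with 765 peaks or 1.62% in the 1 kb downstream and 505 or 1.07% upstream. The 150 bp around the midpoint of an H3K14ac peak at a start site held a median of 9 CpG and 62.7% GC, whereas a Kap1 peak at a start site held a median of 1 CpG and 49.3% GC. Genome windows of the same length held a median of 1 CpG and 42.0% GC.

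**Figure D1:**
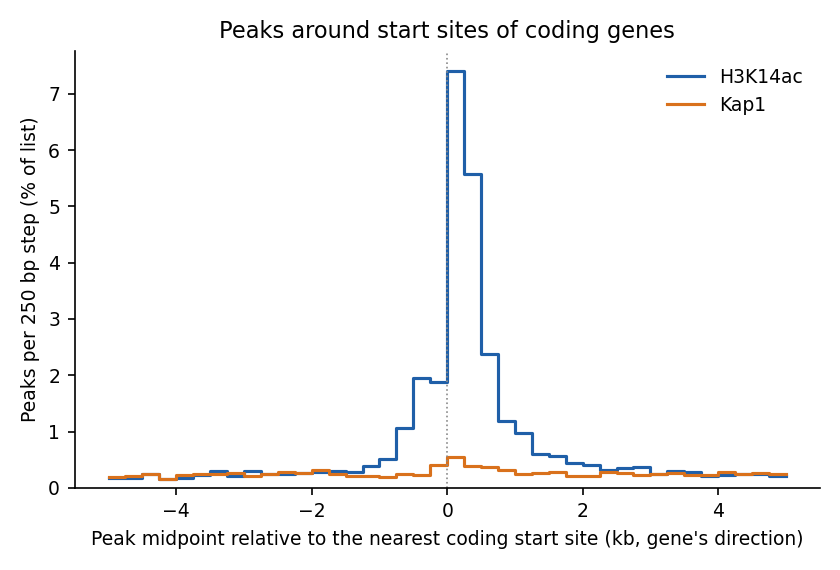
Peak midpoints around the nearest start site of a coding gene, in steps of 250 bp (x axis, kb in the gene's direction; y axis, percent of the list per step). The H3K14ac line rises to 7.40% in the step just downstream of the start site, while the Kap1 line reaches 0.550% there.

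The 2 kinds of peak met at few promoters. Of 20807 coding genes, 3814 (18.3%) had an H3K14ac peak within 1 kb of a start site, 1083 (5.2%) had a Kap1 peak there, and 155 (0.745%) had both. In the whole gene with 1 kb on each side the counts came out nearly equal, 6053 genes (29.1%) with H3K14ac and 6049 (29.1%) with Kap1. Among genes with H3K14ac at a start site 4.06% (3.48% to 4.74%) had Kap1 there too, against 5.46% (5.13% to 5.81%) of the other genes. The 2 shares drew apart once the 100 bins of 1 Mb richest in Kap1 peaks, described below, were set aside. There 59 of 3464 genes with H3K14ac at a start site had Kap1, or 1.70% (1.32% to 2.19%), against 709 of 16151 without it, or 4.39% (4.08% to 4.72%). Within the 100 bins the shares were 27.4% of 350 and 26.0% of 842 genes. Of the 155 genes with both, 96 lay in those bins and 81 had at least 1 shared base at the start site.

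Trpm8, which encodes the cold-sensing ion channel, had the longest shared stretch at a start site, 2901 bp, with 13 Kap1 and 33 H3K14ac peaks over the gene and 2 and 5 of them at start sites. The testis kinase gene Smok2b followed with 1660 bp, and its relative Smok2a shared 1216 bp. Gm14401, 4931408C20Rik and BC147527 shared 1510, 1461 and 1287 bp. Cxcl13, which encodes the B cell chemokine, shared 1270 bp. Zfp981, a zinc finger gene of chromosome 4, shared 1244 bp, with 12 Kap1 and 21 H3K14ac peaks over the gene, 5 and 3 of them at start sites. Plekhn1 and Coil, which encodes the Cajal body protein coilin, shared 970 and 895 bp.

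No Kap1 peak lay in 9 genes of its complex and partners, while 6 of 12 genes of histone acetylation and deacetylation had one. Of the 9 genes of the Kap1 complex and its partners on these chromosomes, 5 had H3K14ac at a start site (Trim28, Cbx3, Chd3, Chd4 and Daxx). Among all coding genes 18.3% have it there. None of the 9 had a Kap1 peak in the gene or within 1 kb of it, where 29.1% of coding genes have one. Trim28 itself had 5 H3K14ac peaks over an annotated span of 31.9 kb, 1 of them at a start site. Setdb1, Cbx1 and Mphosph8 had none, and Cbx5 had 1 away from its start sites. Of 12 genes for acetylation and deacetylation of histones, 8 had H3K14ac at a start site. None had Kap1 there, against 5.2% of coding genes, and 6 of the 12 had Kap1 elsewhere in the gene or within 1 kb, against 29.1%. Longer genes have more room for peaks, and these shares are not matched for length. The 12 range from Kat5 with 7.22 kb to Kat6b with 191 kb, whereas the longest of the 9, Cbx5, spans 48.3 kb. Ep300 and Crebbp, which encode related acetyltransferases, had 2 Kap1 peaks each. Kat2b, an acetyltransferase, had the most H3K14ac, 10 peaks beside 1 Kap1 peak, and Hdac3 had 2 H3K14ac and 4 Kap1 peaks, the most Kap1 among the 12.

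The labelled tissue was checked on marker genes. H3K14ac lay at a start site of 5 of 14 hepatocyte genes, against 18.3% of all coding genes. Among these were Apoa1 and Apob, which encode the main apolipoproteins, and the transcription factor genes Foxa2 and Onecut1. Alb, which encodes albumin, had no peak of either kind, its nearest H3K14ac peak lying 24335 bp from the 250 bases before the start site. Serpina1a, Cyp7a1, Cps1, G6pc and Fgb, which serve blood protein secretion, bile acid synthesis, the urea cycle, glucose release and clotting, had none either. None of 4 cholangiocyte, 4 Kupffer cell, 4 endothelial, 4 stellate and 3 lymphocyte genes, and none of 6 genes of other tissues, had H3K14ac at a start site. Kap1 lay at the start site of 1 gene of these lists, Myod1, which drives muscle development. Over all coding genes the share with Kap1 there is 5.2%, and 1 gene is too few to set beside it. In bulk liver a peak cannot be assigned to a cell type, and a missing peak says only that the site did not pass the authors' threshold.

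Among the families whose start sites H3K14ac preferred were protein synthesis and degradation genes and, of the liver families, the apolipoproteins. It lay at 42.5% of 80 cytosolic ribosomal protein genes (32.3% to 53.4%), 37.0% of 27 apolipoprotein genes (21.5% to 55.8%), 32.7% of 49 proteasome genes, 30.8% of 78 mitochondrial ribosomal protein genes and 28.7% of 415 zinc finger genes (24.5% to 33.2%), against 18.3% of all coding genes. The intervals treat genes as independent, although genes of a family can lie side by side and share peaks. Kap1 lay at 0 of the 80 cytosolic ribosomal protein genes (upper bound of the interval 4.58%), against 5.2% of all coding genes. Among the other metabolic families, H3K14ac lay at 20.4% of 372 solute carrier genes, 21.9% of 32 complement and coagulation genes and 27.3% of 22 NADH dehydrogenase genes, whose wide intervals include the value for all genes. It lay at 12.2% of 98 cytochrome P450 genes, the detoxifying oxidases, 17.4% of 23 Serpina genes, 14.3% of 21 sulfotransferase, 9.09% of 22 glutathione S-transferase and 5.26% of 19 UDP-glucuronosyltransferase genes, whose intervals likewise include it. Apoc3, which encodes an inhibitor of lipoprotein lipase, had the most H3K14ac of the apolipoprotein genes, 4 peaks and no Kap1.

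Kap1 preferred the start sites of chemosensory receptor and protocadherin genes, where H3K14ac was scarce, and of MHC genes, where it was not. Kap1 lay at a start site of 161 of 1128 olfactory receptor genes, or 14.3% (12.4% to 16.4%), and H3K14ac at 3.37% (2.46% to 4.59%). For type 1 vomeronasal receptors, which sense pheromones, the shares of 208 genes were 17.8% (13.2% to 23.6%) for Kap1 and 4.81% (2.63% to 8.62%) for H3K14ac. For 119 type 2 vomeronasal receptors they were 10.1% and 0.840%. For 57 clustered protocadherins, which give neurons their surface identity, they were 14.04% (7.29% to 25.3%) and 0 (upper bound 6.31%). The protocadherin genes share bases with one another, since their first exons splice to common last exons, so 35 Kap1 peaks stand behind the 46 of these genes that had one. For 34 MHC genes, which encode antigen-presenting proteins and none of which lies in the 100 bins, the shares were 14.7% (6.45% to 30.1%) and 20.6% (10.3% to 36.8%). Outside the 100 bins the Kap1 share was 11.9% of 1059 olfactory receptor genes (10.1% to 13.99%), against 3.92% of all coding genes there. It was 7.14% of 140 type 1 (3.93% to 12.6%) and 6.82% of 88 type 2 (3.16% to 14.1%) vomeronasal receptor genes, whose intervals reach down to or include that value. The protocadherin share did not move, since none of these genes lies in the bins.

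**Figure D2:**
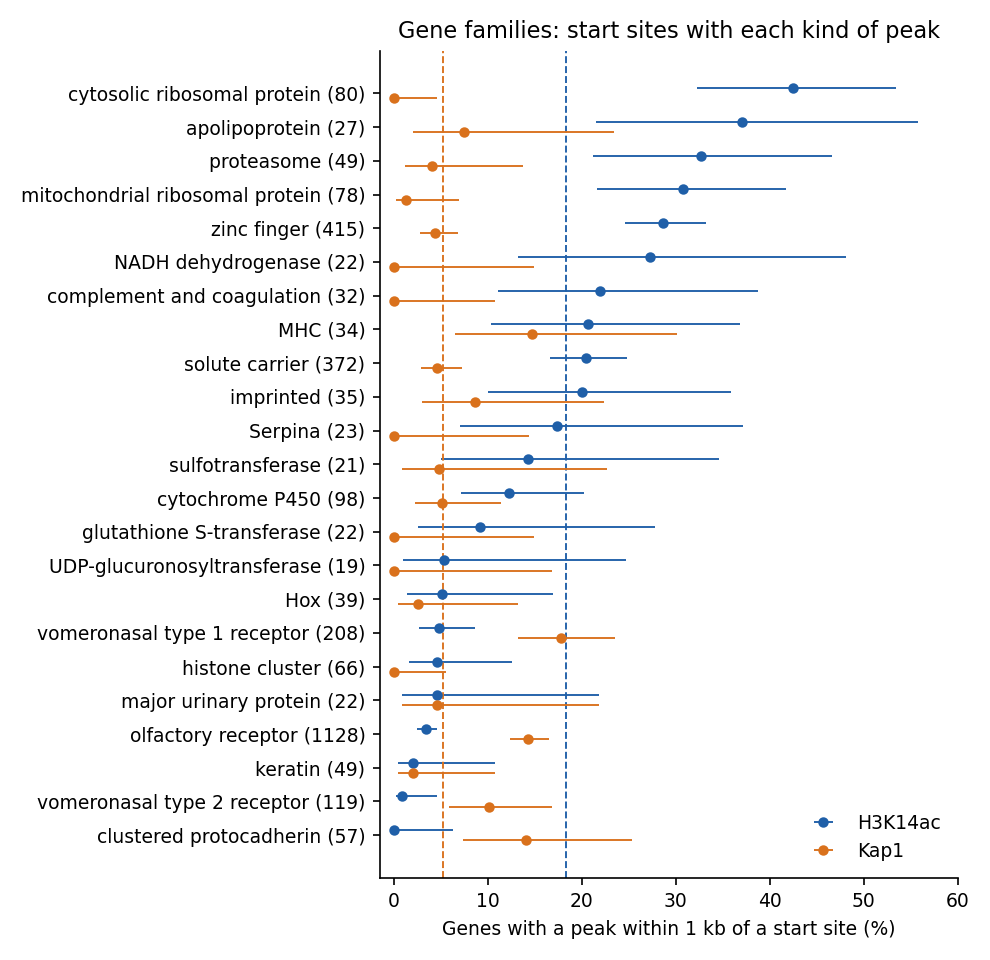
Percent of genes with an H3K14ac (blue) or Kap1 (orange) peak within 1 kb of a start site (x axis) in each gene family (y axis, number of genes in brackets), with 95% Wilson intervals as bars and dashed lines at 18.3% and 5.2% for all coding genes. The cytosolic ribosomal, mitochondrial ribosomal and proteasome families lie right of the blue line with Kap1 at 0, 1.28% and 4.08%, and the olfactory and vomeronasal receptors and protocadherins lie right of the orange line.

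Zinc finger genes were rich in both kinds of peak. They were chosen by symbol (Zfp, Zscan or Zkscan). Of the 415, 337 had 5 or more matches to the C2H2 zinc finger pattern in the coding sequence. In the 415 genes with 1 kb on each side, Kap1 had 456 peaks or 33.4 per Mb, 1.70 times the 19.7 per Mb of all known bases, and H3K14ac had 339 or 24.8 per Mb, 3.15 times its 7.88 per Mb. These are 0.968% of the Kap1 and 1.80% of the H3K14ac peaks in 0.570% of the bases. At start sites the H3K14ac density was 128 per Mb, against 81.1 for all coding genes, while Kap1 stood at 28.9 and 24.8 per Mb. Outside the 100 bins Kap1 lay at a start site of 6 of 352 zinc finger genes, or 1.70% (0.783% to 3.67%), below the 3.92% of all coding genes there. In gene bodies both were denser than in all coding genes, Kap1 with 33.5 against 16.0 and H3K14ac with 23.5 against 9.42 per Mb. In the last coding exon, where C2H2 genes typically carry their zinc finger array, Kap1 stood at 57.5 per Mb, or 30 peaks. That is close to the 53.0 per Mb of last coding exons in all coding genes. At gene ends Kap1 stood at 50.9 per Mb in zinc finger genes and 23.7 in all coding genes. Of the 456 Kap1 peaks 59, or 12.9% (10.2% to 16.3%), shared a base with H3K14ac, against 4.33% of all Kap1 peaks. For all Kap1 peaks that share was 10.9% in the 100 bins and 1.51% elsewhere. The 352 zinc finger genes outside the bins held 215 Kap1 peaks. Without the 100 bins the Kap1 density in zinc finger genes fell to 17.8 per Mb, against 14.3 per Mb over all bases outside those bins, and that of H3K14ac to 16.3, against 6.06. Zfp950 on chromosome 19 had the most Kap1 peaks of the family, 40, with 14 H3K14ac peaks.

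Across the genome, regions rich in Kap1 were also rich in H3K14ac. In 2473 bins of 1 Mb the median was 11 Kap1 peaks (range 0 to 240) and 4 H3K14ac peaks (range 0 to 148). Spearman's rho between the counts was 0.367 and Pearson's r was 0.715, given as a description with no p, since the bins share libraries, mappability and gene content. Pearson's r rested on the densest bins, and without the 100 bins with the most Kap1 peaks it was 0.356, with a rho of 0.285. Gene content went with one mark only, the rho with coding genes per bin being 0.332 for H3K14ac and -0.02 for Kap1. By chromosome, chromosome 7 was the densest in Kap1 with 34.1 peaks per known Mb, and chromosome 4 in H3K14ac with 11.3. Chromosome 11 was the poorest in Kap1 with 9.44 per Mb and had 1.37 Kap1 peaks for each H3K14ac peak, against 3.25 on chromosome 12.

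**Figure D3:**
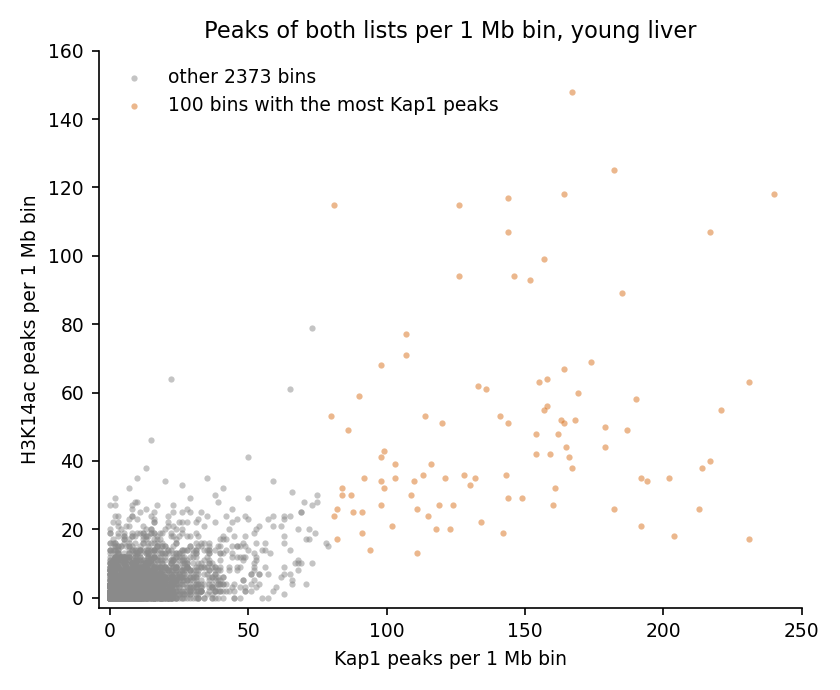
Kap1 peaks (x axis) against H3K14ac peaks (y axis) in each 1 Mb bin of chromosomes 1 to 19, with the 100 bins with the most Kap1 peaks in orange. The orange bins hold 80 to 240 Kap1 and 13 to 148 H3K14ac peaks, and the median bin of all holds 11 and 4.

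The 100 bins with the most Kap1 peaks, 4.04% of all bins, held 30.03% of the Kap1 peaks, 26.1% of the H3K14ac peaks and 75.5% of the Kap1 peaks that shared a base with H3K14ac. The number 100 was chosen after the values were seen, and the 50 richest bins alone held 50.4% of the shared peaks. Each of the 100 bins lay above the median bin in H3K14ac. In these bins 10.9% of the Kap1 peaks (10.4% to 11.4%) lay in H3K14ac, against 1.51% (1.39% to 1.65%) in all other bins. H3K14ac covered 2.85% of their known bases, against 0.306% elsewhere. Unknown bases, that is gaps in the assembly, stood in 45 of the 100 bins and in 7.37% of the others, and 13.3% of the Kap1 peaks in the 100 bins had a second copy in the genome (at least 90% of the length at 95% identity or more), against 2.71% in the other bins. The part of assembly gaps and repeated sequence in the result was not tested.

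The densest bins differed in gene content. The bin with the most Kap1 peaks, chromosome 4 from 147 to 148 Mb, held 240 Kap1 and 118 H3K14ac peaks and 9 zinc finger genes, and 33.8% of its Kap1 peaks lay in H3K14ac. Within it Zfp985 had 26 Kap1 and 9 H3K14ac peaks, Zfp984 had 20 and 7, and Zfp982 had 13 and 6, whereas Rex2 and Zfp534 had 1 Kap1 peak each and no H3K14ac. The next, the last bin of chromosome 9, held 231 and 63 peaks. A bin on chromosome 12 from 19 to 20 Mb held as many Kap1 peaks, 231, but only 17 H3K14ac peaks and 1 coding gene. The last bin of chromosome 18 held 221 and 55 and 2 coding genes. The secretoglobin cluster on chromosome 7 from 33 to 34 Mb held 217 and 40, with 5.99% of its Kap1 peaks in H3K14ac, and the last bin of chromosome 10 tied with it at 217 Kap1 peaks but held 107 H3K14ac peaks, with 24.4% of its Kap1 peaks in H3K14ac. The order by H3K14ac differed. It was led by chromosome 1 from 85 to 86 Mb, which holds the interferon-induced nuclear body genes Sp100, Sp110 and Sp140, with 148 H3K14ac and 167 Kap1 peaks. Chromosome 10 from 81 to 82 Mb followed with 125 and 182, then 2 bins of chromosome 4, from 145 and from 147 Mb, with 118 H3K14ac peaks each, and chromosome 12 from 24 to 25 Mb with 117 and 144. Zinc finger genes were present in 20 of the 100 bins and in 7.16% of the others.

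Single genes with the most peaks differed between the marks. Fgf14, which encodes a regulator of neuronal sodium channels, had the most Kap1 peaks, 118, with 16 H3K14ac peaks in 699 kb. Adcy2, an adenylate cyclase gene, had 87 and 13, and the neuronal gene Cntnap2 had 78 and 8 in 2245 kb. Among the genes richest in H3K14ac peaks, Vps13d, which encodes a lipid transfer protein, had 50 with 31 Kap1 peaks, and Nfic, which encodes a transcription factor of the nuclear factor I family, had 28 with 4. Grk5, a receptor kinase gene whose span overlaps that of Zfp950, and Gm42906 were among the first 10 of both lists, with 55 and 58 Kap1 and 32 and 26 H3K14ac peaks. Long genes have more room for peaks, and these counts are not per length.

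Few Kap1 peaks lay on the same bases as H3K14ac. Of the Kap1 peaks 2039, or 4.33% (4.15% to 4.52%), shared at least 1 bp with an H3K14ac peak, and 2254 or 11.9% (11.5% to 12.4%) of the H3K14ac peaks shared one with Kap1. The midpoint of a Kap1 peak lay in H3K14ac in 3.43% of cases, 8.52 times the 0.403% of known bases that H3K14ac covers. The ratio was lower within groups of bins, the midpoint share being 8.51% against 2.85% of bases within the 100 bins and 1.25% against 0.306% in the others. The median distance of a Kap1 peak to the nearest H3K14ac peak was 33.5 kb, with quartiles at 6.92 and 123 kb. Within 1 kb lay 9.29%, within 10 kb 29.97% and within 100 kb 71.1% of the Kap1 peaks, while 321 were more than 1 Mb away. In the 100 bins the median was 4.79 kb, and in the others 67.0 kb. Within 100 kb lay 96.8% of the Kap1 peaks of the 100 bins and 60.1% of the others. The share of all bases within 100 kb of H3K14ac is not given here, so these distances have no background value. From H3K14ac to the nearest Kap1 peak, in the larger list, the median was 13.8 kb.

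The share of H3K14ac peaks that met Kap1 was lowest at start sites. Of the H3K14ac peaks at start sites 5.05% (4.47% to 5.70%) shared a base with Kap1, compared with 12.1% (11.3% to 12.9%) in introns and 16.4% (15.5% to 17.2%) between genes. The median distance to Kap1 was 32.1 kb for those at start sites and 6.98 kb for those between genes. H3K14ac peaks of all classes met Kap1 in 34.2% of cases in the 100 bins and 4.08% elsewhere. Start sites held 25.7% of all H3K14ac peaks and 29.5% of those outside the 100 bins. The shares by class are not given here by group of bins. Seen from Kap1, the share in H3K14ac was 7.22% (6.35% to 8.19%) at start sites and 4.05% and 4.20% in introns and between genes. The sequence of H3K14ac peaks that met Kap1 was compared with that of the others. Their median GC content was 46.7% against 50.7%, their soft-masked share 32.5% against 17.6%, and 9.54% against 1.02% had a second copy. Of the former 1685 of 2254 lie in the 100 bins, where all H3K14ac peaks have a median GC content of 47.3%, a soft-masked share of 24.8% and a second copy in 6.07% of cases. Kap1 peaks in H3K14ac had a second copy in 11.3% of cases and the others in 5.65%, although 75.5% of the former lie in the 100 bins, where 13.3% of all Kap1 peaks have one. With Kap1 peaks that have a second copy left out, the share in H3K14ac was 4.08% over all bins, and in the 100 bins it went the other way, from 10.9% to 11.1%.

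The share of Kap1 peaks in H3K14ac was higher in each wider class of Kap1 peak. Of the 41655 peaks of 150 bp, 88.5% of the list, 1.96% (1.83% to 2.10%) shared a base with H3K14ac. The share was 12.3% (11.1% to 13.6%) of 2677 peaks wider than that but under 300 bp, 20.7% (18.7% to 22.8%) of 1432 peaks from 300 to under 500 bp, 37.3% (34.2% to 40.4%) of 926 peaks from 500 to under 1000 bp, 56.5% (50.7% to 62.1%) of 285 peaks from 1000 to under 2000 bp and 84.4% (76.4% to 90.03%) of 109 peaks of 2000 bp or more. A wider peak has more room to meet another, so the midpoint alone was counted too. It lay in H3K14ac in 1.67% of the peaks of 150 bp, 11.02%, 16.1%, 26.2% and 30.9% of the next classes and 59.6% (50.2% to 68.4%) of the widest, and the intervals of neighbouring classes overlapped only between the class from 500 and the class from 1000 bp. The bases of Kap1 peaks gave 1.65% for the narrowest and 60.4% for the widest class.

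**Figure D4:**
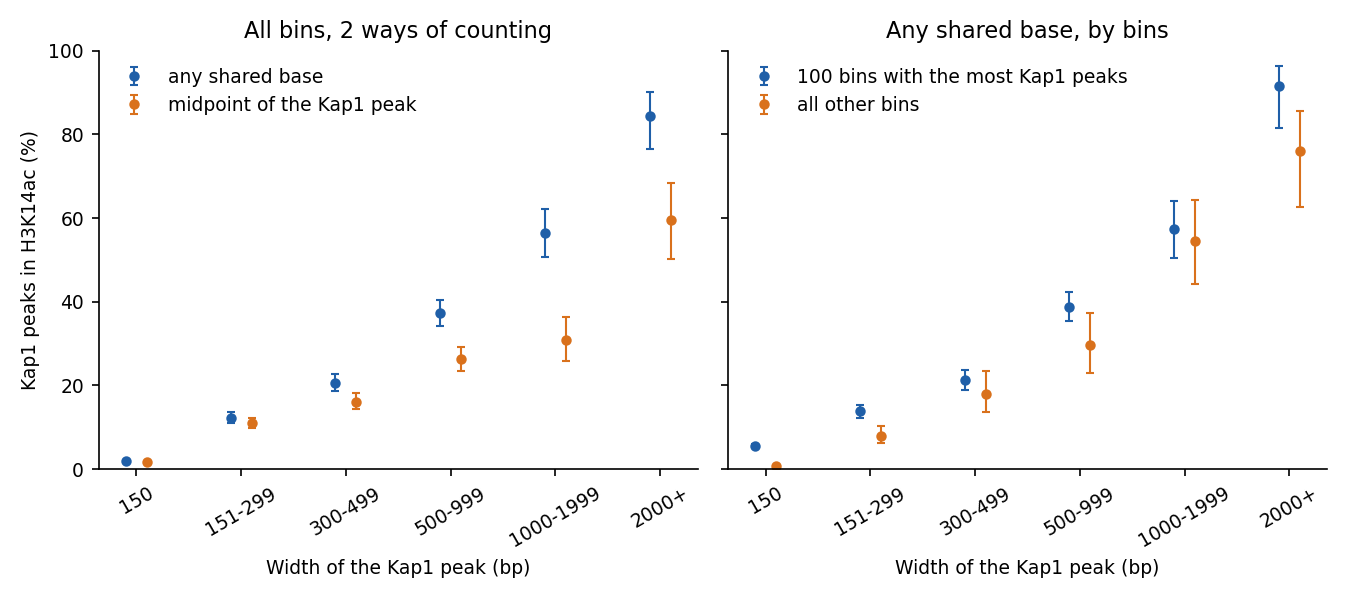
Percent of Kap1 peaks in H3K14ac (y axis) by width of the Kap1 peak (x axis, bp), with 95% Wilson intervals; left, any shared base and the midpoint alone over all bins, and right, any shared base inside and outside the 100 bins with the most Kap1 peaks. The share rises from 1.96% at 150 bp to 84.4% at 2000 bp or more, and from 0.848% to 76.0% outside the 100 bins.

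The same order of classes stood inside and outside the 100 bins. In the bins the share went from 5.51% at 150 bp to 91.5% of 59 peaks of 2000 bp or more. Outside them it went from 0.848% (0.753% to 0.955%) at 150 bp to 76.0% (62.6% to 85.7%) of 50 peaks. For peaks of 1 kb or more the shares inside and outside were 65.4% and 62.1%, with overlapping intervals. The share of peaks lying in the bins was 23.8% at 150 bp and, by class, 74.3%, 83.7%, 83.3%, 68.4% and 54.1% in the wider ones. The median distance to H3K14ac fell from 42.6 kb at 150 bp to 0.684 kb at 500 to under 1000 bp and was 0 from 1000 bp on. From the side of H3K14ac, 10.6% of the 18424 peaks of 500 bp met Kap1, as did 60.6% of 327 peaks wider than that but under 1000 bp and 91.9% (78.7% to 97.2%) of 37 peaks of 2000 bp or more.

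**Figure D5:**
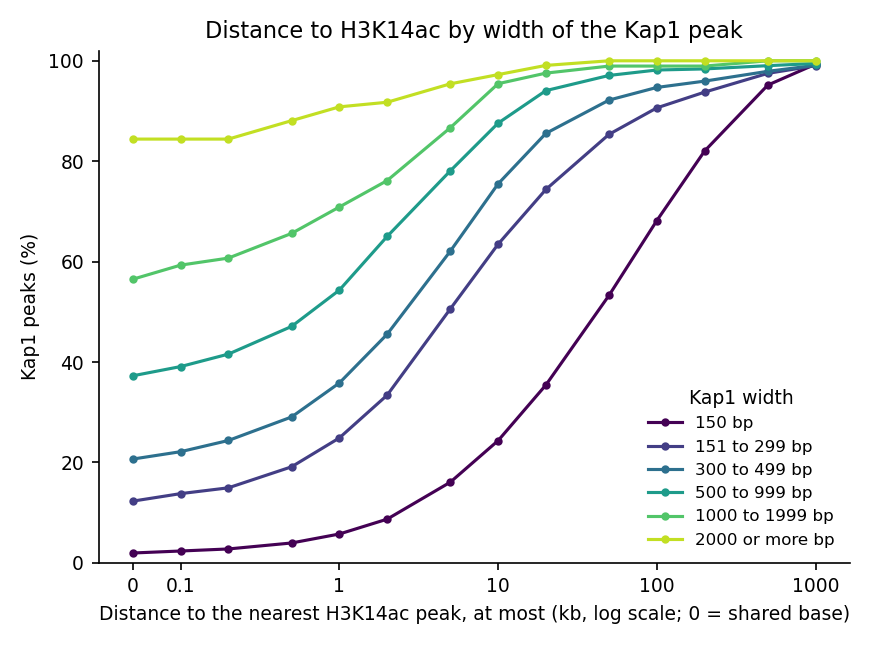
Cumulative percent of Kap1 peaks (y axis) within a distance of the nearest H3K14ac peak (x axis, kb, log scale, with 0 for a shared base), 1 line per width class of the Kap1 peak. Peaks of 150 bp reach 24.3% at 10 kb, those from 500 to under 1000 bp 87.6%.

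Some of the widest regions were shared nearly base for base. Of the 253 Kap1 peaks of 1 kb or more that met H3K14ac, 75 met a peak of 1 kb or more. Most of these 75 matched less closely. The wider peak was a median of 1.43 times the narrower, and a median of 64.0% of the Kap1 peak was covered. The longest overlap, 15837 bp, stood on chromosome 11 at the gene Sfi1, from 3184196 to 3200070 in the Kap1 list. The edges of the H3K14ac peak lay 23 and 15 bp from those of the Kap1 peak, and both peaks stand first in their lists as deposited. The third longest, 5951 bp on chromosome 17 at 39842930 to 39848900, stands second in both lists and overlaps the noncoding genes Gm42418 and AY036118, a locus known to carry ribosomal RNA sequence. Of the 15 longest overlaps, 5, of 3935 to 5836 bp, lay side by side on chromosome 1 between 88211479 and 88277494, from the last exons of the Ugt1a genes for bilirubin conjugation across Mroh2a to Hjurp, which loads centromeric histone. The widest Kap1 peak of all, 17736 bp, was one of them, and Trpm8, with the most bases shared at start sites, is the next gene. A further 4 lay on chromosome 4 between 146492011 and 147434458, a stretch that includes Zfp981. The central 500 bp of the peaks at Sfi1 and on chromosome 17 had 0 other copies in the assembly, in both lists. Leaving out peaks with a second copy therefore keeps these 2 regions. Whether such regions also stand out in the input DNA was not tested, since read coverage was not analysed here.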

How the data were processed

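Peaks came from the livers of wild-type C57BL/6 mice aged 3 months, by the paper's methods 2 livers for Kap1 and 3 for H3K14ac. Reads had been aligned to mm10 with BWA, duplicates removed with Picard, and uniquely aligned reads with a phred score of at least 30 kept. The authors merged the livers of each mark and called peaks against input with PeakSeq (FDR 5%, q-value 0.02 for H3K14ac and 0.05 for Kap1). The deposited lists give positions only (chromosome, start and end), with no height, score, p-value or read count, so the depth behind a peak is unknown and each mark is 1 list. With no replicate lists, differences between the marks were described with 95% Wilson intervals and not tested. The other 4 lists of the series and the peaks on chromosomes X and Y were not used here.

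Midpoints were placed on the GENCODE basic annotation (release M21, mm10) as start site (within 1 kb), exon, intron or between genes, in that order of precedence. Distances ran from edge to edge, and 1 shared base counted as overlap. Peaks were mapped back to the genome with minimap2 2.31 to find second copies (90% of the length at 95% identity), over the central 500 bp of wider peaks. Intervals were computed in Python 3.11.15 with numpy 2.4.6 and scipy 1.17.1, tested on simulated data and checked with bedtools 2.31.1. Promoter sequences came from RefSeq (GRCm38.p6). Genes were named by rule. The rule took the genes of the Kap1 complex and its partners and of H3K14 acetylation, marker genes and the 10 genes with the most peaks of each list. It also took the richest gene of each family for each list, the 10 genes with the most bases shared at start sites and the 5 richest bins of each list. Zfp985, Zfp984, Zfp982, Rex2 and Zfp534 were named outside it, after their values were seen. Some genes that the rule names are not reported here. The members, lists and rules were chosen with earlier results of these data known. Alternatives were bin size, window, peak edge, merging, required overlap, second copies, gene definition, the first 50% of each list, and, chosen after seeing the data, leaving out the 100 bins with the most Kap1 peaks.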

Additional observations from a re-analysis of the deposited data

How the results depend on the processing

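Of 68 alternative values for 9 results, 22 lay within the interval of the main value and 46 moved outside it. Only the correlation could have changed sign, and it stayed positive under its 9 alternatives. The rho between Kap1 and H3K14ac over bins, 0.367, was 0.301 in bins of 500 kb and 0.562 in bins of 5 Mb, and Pearson's r was 0.715. With a window of 5 kb, 23.3% of the Kap1 and 42.2% of the H3K14ac peaks counted as at a start site. The shares at start sites were 6.93% and 27.6% by peak edge, 2.70% and 22.0% at coding genes only, and 6.16% and 24.3% after peaks within 1 kb were merged. The shares in zinc finger genes were 1.26% for Kap1 and 2.20% for H3K14ac with genes chosen by 5 or more C2H2 matches in the coding sequence, 0.805% and 1.56% after merging, and 1.60% for H3K14ac in the gene body alone. With peaks that have a second copy left out, Kap1 stood at 6.10% at start sites and 0.867% in zinc finger genes, 35236 bp (median) from H3K14ac, with 4.08% in H3K14ac.

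The share of Kap1 peaks in H3K14ac, 4.33%, was 3.43% by midpoint and also with 50% of the peak covered, 7.00% with a gap of 500 bp allowed and 3.90% against H3K14ac peaks of 500 bp alone. For Kap1 peaks of 150 bp it was 1.67% by midpoint, 1.67% with 50% covered and 3.95% with the gap. For those of 1 kb or more it was 38.8% by midpoint, 35.5% with 50% covered, 71.8% with the gap and 41.9% against H3K14ac peaks of 500 bp alone. In the first 50% of each list as deposited, the rho was 0.271, H3K14ac stood at 34.6% at start sites and 2.01% in zinc finger genes, the median distance was 96071 bp, and 2.62% of all Kap1 peaks, 0.476% of those of 150 bp and 56.2% of those of 1 kb or more lay in H3K14ac. Fewer peaks lengthen distances by construction, and otherwise the cause was not tested. Without the 100 bins with the most Kap1 peaks, the rho was 0.285, 5.35% of the Kap1 and 29.5% of the H3K14ac peaks lay at start sites, 0.653% and 1.41% lay in zinc finger genes, the median distance was 66957 bp, and 1.51% of all Kap1 peaks and 0.848% of those of 150 bp lay in H3K14ac.

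No paired analysis was possible because each mark is 1 pooled list, and for the same reason no liver could be left out in turn. The choice of zinc finger genes by RefSeq protein was not run, and coding sequences were translated instead (1.26% and 2.20%, above). Heights and read depth were not analysed here, so a site below the peak threshold and an unbound site cannot be told apart.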

Other observations

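A set of further gene families was chosen after the values were seen, from the genes of the densest bins, and is given as values only, beside 19.7 Kap1 and 7.88 H3K14ac peaks per Mb over all known bases. Beta-defensin genes, which encode antimicrobial peptides, held 162 Kap1 and 123 H3K14ac peaks per Mb in 42 genes, and 26.7% of their 45 Kap1 peaks shared a base with H3K14ac, against 10.9% of all Kap1 peaks in the 100 bins. Nlrp genes, which include inflammasome sensors and genes of the early embryo, held 166 Kap1 and 27.0 H3K14ac peaks per Mb in 17 genes, and 58.2 and 30.5 outside the 100 bins. Secretoglobin genes, which encode small secreted proteins, held 175 and 16.7 per Mb in 29 genes, and 46.3 and 0 outside the bins. The value outside rests on 2 Kap1 peaks in 11 genes. The 3 genes Sp100, Sp110 and Sp140 held 242 and 197 per Mb. Not every family of the set was dense in both. The 22 alpha-defensin genes, all in the 100 bins, held 4 Kap1 and 0 H3K14ac peaks, and the 10 Speer genes held 2 and 0. Outside the 100 bins, the 20 other beta-defensin genes held 1 Kap1 and 0 H3K14ac peaks.

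Sulfotransferase genes, which conjugate steroids and drugs in liver, held 45 Kap1 peaks or 64.2 per Mb in 21 genes, 14 of them at Sult2a3, and 31.5 per Mb outside the 100 bins, against 19.7 and 14.3 over all bases. Among 35 imprinted genes, Ube3a, which encodes a ubiquitin ligase, had the most Kap1 peaks, 17, with 5 H3K14ac peaks.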
